A study of Mus musculus with 18 samples.

Results

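The 10 genes described here encode the enzymes that build fatty acids from acetyl units, with the transcription factor that drives them: Acly, Acss2, Me1, Acaca, Fasn, Elovl6, Scd1, Scd2, Fads2 and Srebf1. They were picked out by gene symbol from a table of 26143 genes. The rule uses no measured value, but the choice was made with earlier results of these data known. All 10 were found, and all 10 were among the 15235 genes abundant enough to be tested.

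RNA was sequenced in 18 mouse libraries that the labels assign to squamous epithelium, in 4 groups. WT is wild type esophagus, with 3 libraries. The p53 group is tongue with 1 mutant and 1 normal p53 allele (LSL-p53+/R172H), with 3 libraries. The E20 group is tongue carrying a PIK3CA allele with the H1047R change (LSL-PIK3CA H1047R), with 6 libraries. E20/p53 is tongue carrying both mutant alleles and K14-Cre, with 6 libraries, and is called the double mutant below. LSL alleles stay silent until Cre recombinase removes a stop cassette, and K14-Cre is driven by the promoter of keratin 14, a basal keratinocyte gene. The labels name Cre only for E20/p53, so labelled Cre and the mutant alleles cannot be told apart in comparisons of E20/p53 with another group. Age is not labelled, nor is it labelled which libraries were tumour tissue or came after 4NQO, the carcinogen in the study's title. WT differs from the other groups in tissue as well as genotype, so genotype and tissue cannot be told apart in a comparison with WT. No label ties libraries of a group to separate animals, so the p-values below reflect the spread of these libraries alone. The spread is pooled over all 4 groups and, in E20 and E20/p53, includes differences between replicates 1 to 3 and 4 to 6. How much of it is technical cannot be told.

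De novo fatty acid synthesis starts from cytosolic acetyl-CoA, which ATP citrate lyase (Acly) makes from citrate and acetyl-CoA synthetase 2 (Acss2) makes from acetate. Acetyl-CoA carboxylase 1 (Acaca) turns it into malonyl-CoA, and fatty acid synthase (Fasn) joins these units into palmitate with NADPH, part of which comes from malic enzyme 1 (Me1). Elovl6 lengthens palmitate, the stearoyl-CoA desaturases Scd1 and Scd2 place the first double bond, and Fads2 desaturates polyunsaturated fatty acids. Srebf1 encodes SREBP-1, a membrane-held transcription factor that is released by proteolysis to switch on these enzymes and that acts downstream of insulin, PI3-kinase and AKT in many tissues.

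The 18 libraries held between 14592044 and 18176060 counted reads, and the members were read deeply: the fewest reads of any member in any library were 114, for Acss2 in p53 replicate 1. Levels are given as counts per 1000000 reads (CPM) on the scaled totals of the deposited table. The libraries fell into 6 sets of 3, which are WT, p53, replicates 1 to 3 of E20 (E20 1-3), replicates 4 to 6 of E20 (E20 4-6) and likewise E20/p53 1-3 and E20/p53 4-6. Across genes, Pearson's r was 0.991 or more inside a set, between 0.859 and 0.944 for libraries of 1 group in different sets, and between 0.809 and 0.948 for libraries of different groups. What separates the sets of a group is not given in the labels, and the sets are not groups of the study, so they are described without a test. The sets also differed in cell markers: summed keratinocyte markers had medians of 1017 CPM in E20/p53 1-3, 258 CPM in WT and 134 CPM in E20 1-3, and at most 10.7 CPM in the other 3 sets. Krt5, a defining basal keratinocyte gene, did not exceed 0.201 CPM in any library of WT, p53, E20 4-6 or E20/p53 4-6. Of the 10 keratinocyte markers, 7 were at 1 CPM or more in WT, beside 2 in p53, 2 in E20 4-6 and 3 in E20/p53 4-6. The low levels in p53, E20 4-6 and E20/p53 4-6 go against the labelled tissue, and in WT the markers were mixed. Xist, which coats the inactive X chromosome, stood between 815 and 1350 CPM in the E20 libraries and at most 0.893 CPM in the others, and the Y-linked gene Eif2s3y was at 0 in WT and E20 and at 66.2 CPM or more in p53 and E20/p53. Sex markers and genotype therefore cannot be told apart between E20 and the other groups, nor between WT and p53 or E20/p53. In WT neither marker was high, with Xist at most 0.722 CPM. The sets of a group differed in level too: Xist was at 815 to 992 CPM in E20 1-3 and 1269 to 1350 CPM in E20 4-6, and Eif2s3y at 98.2 to 109 CPM in E20/p53 1-3 and 66.2 to 70.0 CPM in E20/p53 4-6.

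Most of these genes divided the libraries of each PIK3CA group into a high and a low set. In 8 of the 10 genes (Acly, Acss2, Acaca, Fasn, Elovl6, Scd1, Fads2 and Srebf1), all 6 libraries of E20 4-6 and E20/p53 1-3 lay above all of the other 12 libraries. Among all genes tested, 2.68% had that arrangement. The arrangement and the folds that follow were chosen after the values of these genes were seen. The shares are therefore a description and not a test. Me1 and Scd2 were the exceptions. The same division was seen in the folds between set means, taken on the log2 scale. From E20 1-3 to E20 4-6, 7 of 10 genes were at least 1.5-fold higher, against 14.8% of all genes tested. From E20/p53 4-6 to E20/p53 1-3, 7 of 10 genes were at least 1.5-fold higher, against 25.1% of all genes. Acss2, Acaca, Fasn, Elovl6 and Fads2 passed that fold in both groups, 5 of 10 against 5.38% of all genes. The median log2 difference of the 10 genes was 0.88 in E20 and 0.82 in E20/p53, beside medians over all genes of -0.02 and -0.02. These counts were the same whichever 1 of the 12 libraries of E20 and E20/p53 was left out. With libraries scaled to the plain sum of reads, 9 genes had the 6 libraries on top, beside 2.66% of all genes. The fold was then passed by 8 genes in E20/p53 and 6 in both groups, beside 32.1% and 5.93% of all genes.

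**Figure D1:**
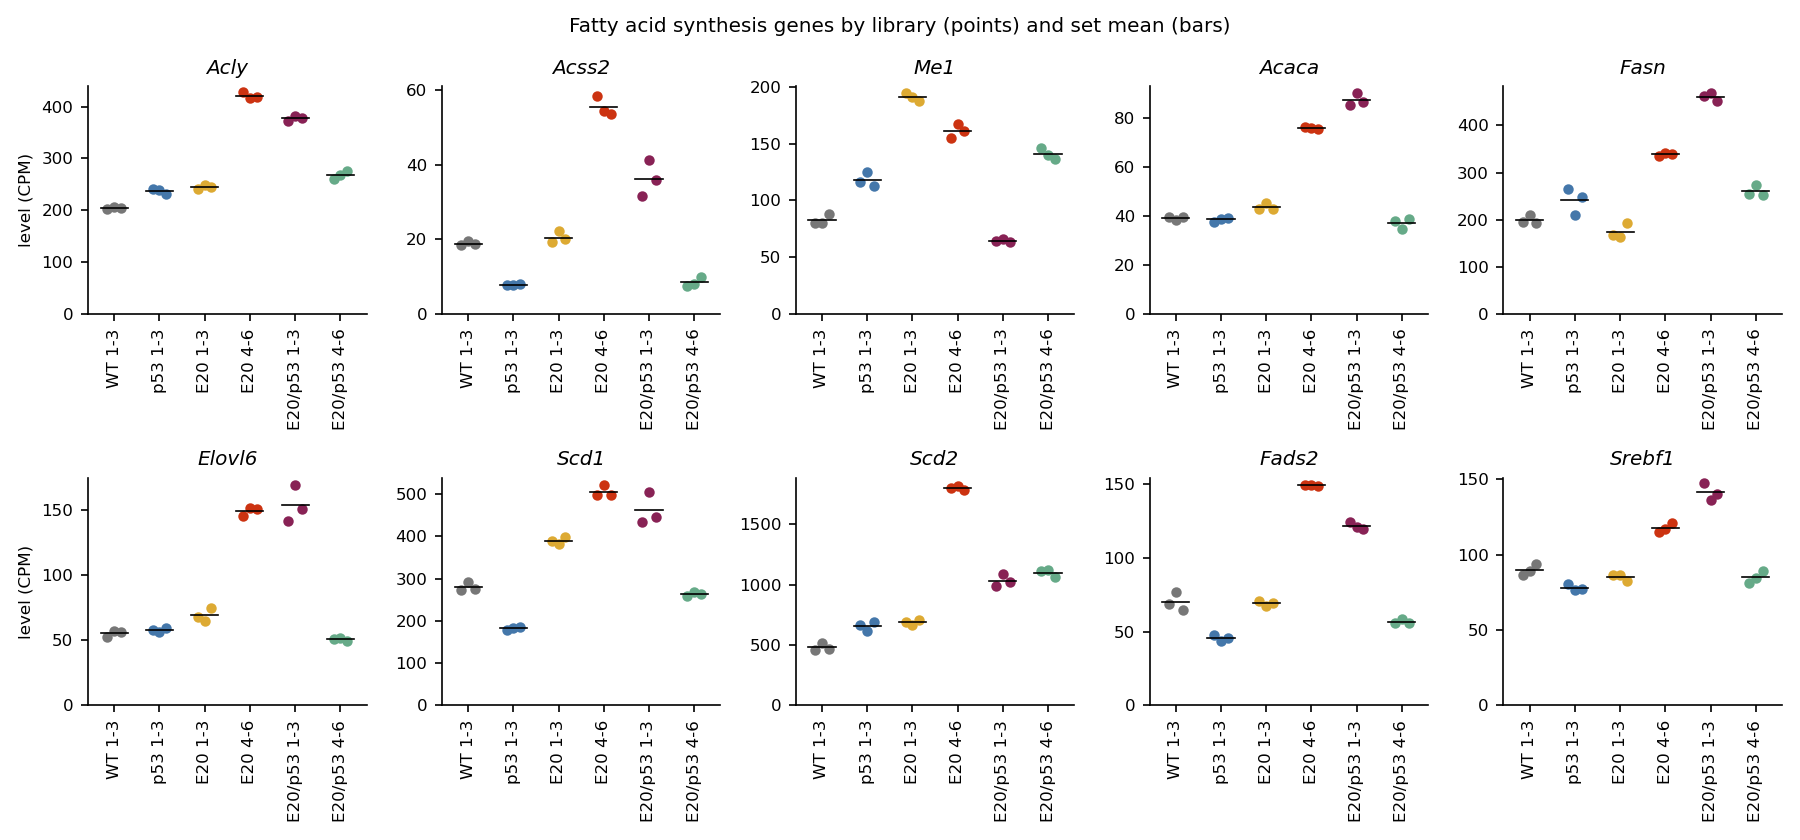
Level of each of the 10 genes in each library (points, CPM on a linear axis from 0) in the 6 sets, with the mean of each set as a bar. In 8 genes the 6 points of E20 4-6 and E20/p53 1-3 lie above the other 12; Me1 is lowest in E20/p53 1-3, and Scd2 stands highest in E20 4-6 alone.

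**Figure D2:**
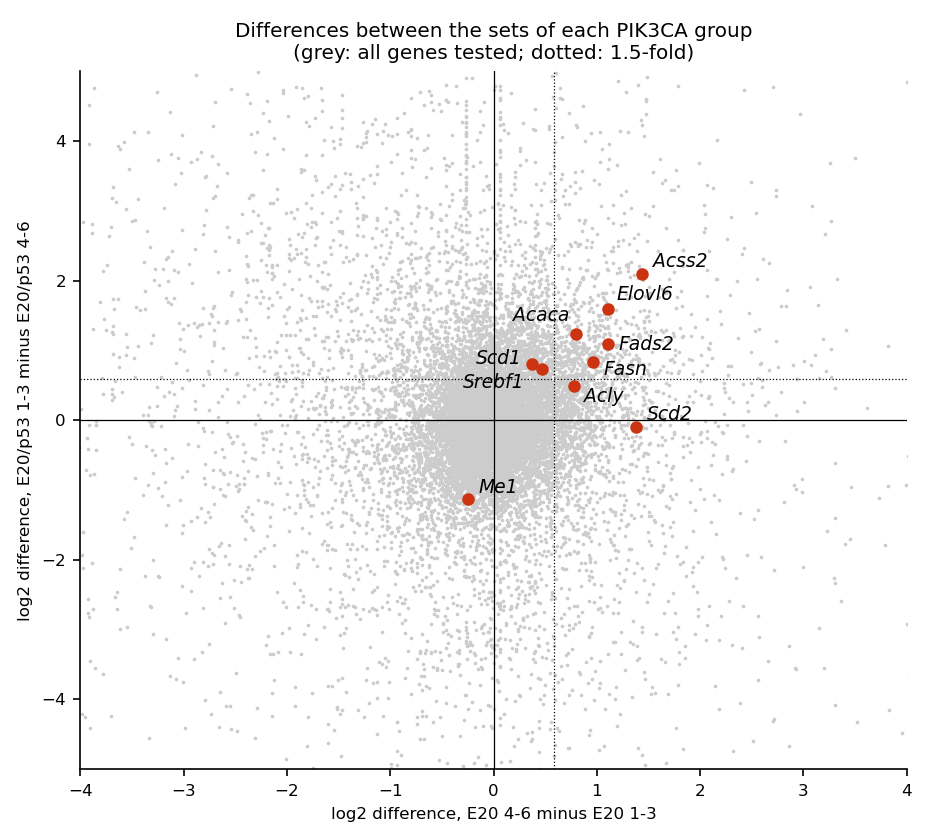
Log2 difference between set means in E20 (E20 4-6 minus E20 1-3, horizontal) and in E20/p53 (E20/p53 1-3 minus E20/p53 4-6, vertical) for the genes tested (grey) and the 10 members (red); dotted lines mark 1.5-fold, and 501 genes, none of them a member, lie outside the axes. Acss2, Acaca, Fasn, Elovl6 and Fads2 lie past both lines, Scd2 is high on the horizontal axis only, and Me1 is below 0 on both.

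The promoters of the members were also read for short motifs known from lipogenic genes. RefSeq promoter windows (build GRCm38.p6, 250 bases before to 50 after a start site) matched 8 of the 10 genes, in 11 windows, and none matched Scd1 or Scd2. On both strands, the core of the sterol regulatory element bound by SREBP, TCACCCCAC, was in 0 of the 11 windows and in 0.551% of the 32851 windows of all genes. The same core with 1 free base, TCACNCCAC, was in 0 of 11 and in 1.24% of all windows. The E-box CACGTG was in 0 of 11 and in 7.15% of all windows, and its longer form TCACGTGA, which contains it, was in 0 of 11 and in 0.974%. The CCAAT box, which binds NF-Y, was in 6 of the 11 windows, from 5 genes, and in 37.4% of all windows. The GC box GGGCGG, which binds Sp1, was also in 6 windows, from 5 genes, and in 35.7% of all windows. The 100 bases upstream of a start site are printed for the windows of Fasn, Acly and Srebf1 that overlap no annotated exon and hold a match inside those 100 bases, 5′ to 3′ on the gene's strand, with matches to CCAAT or GGGCGG on either strand in capitals. The first of the 3 Srebf1 windows without an annotated exon has its CCAAT match further upstream, at -166 to -162 from the start site, and is not printed. All of those printed lie on the minus strand: Fasn at chr11:120824548-120824647, Acly at chr11:100528001-100528100, and 2 Srebf1 start sites at chr11:60220628-60220727 (a) and chr11:60210472-60210571 (b).
Fasn: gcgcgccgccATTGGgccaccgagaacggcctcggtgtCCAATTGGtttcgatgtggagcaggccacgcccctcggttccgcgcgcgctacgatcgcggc
Acly: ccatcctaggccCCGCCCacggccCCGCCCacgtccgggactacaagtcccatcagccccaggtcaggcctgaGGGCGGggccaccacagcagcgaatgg
Srebf1 (a): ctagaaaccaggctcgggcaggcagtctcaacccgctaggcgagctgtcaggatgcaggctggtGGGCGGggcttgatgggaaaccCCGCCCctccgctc
Srebf1 (b): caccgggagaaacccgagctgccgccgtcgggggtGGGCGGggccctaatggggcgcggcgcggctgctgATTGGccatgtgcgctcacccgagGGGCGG
The Fasn stretch held 3 CCAAT matches, 2 of which overlap, and no GC box, and the Acly stretch held 3 GC boxes and no CCAAT match. Srebf1 (a) held 2 GC boxes, and Srebf1 (b) held 2 GC boxes and 1 CCAAT match. G and C made up 67% to 76% of these 4 stretches, which were chosen for holding a match. In the Acaca window and the first Srebf1 window, the same 100 bases overlapped no annotated exon, held no match and had 33% G and C. The Acaca stretch, at chr11:84195338-84195437, lies inside the annotated gene, which starts at 84129672 on the plus strand. The annotated start of Acaca was therefore not read for motifs. A match is a description of the letters, and none of these data show binding.

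Acly, on chromosome 11 at 100476353 to 100528000 (mm10, GENCODE M21), had set means of 38.7 to 79.7 CPM per kb of exon, above Acss2 and Me1 in every set but E20 1-3, where Me1 was at 49.7 and Acly at 46.5 CPM per kb. Its level was 203, 206 and 204 CPM in WT, 241, 239 and 232 in p53, 241, 249 and 246 in E20 1-3, 428, 416 and 418 in E20 4-6, 372, 381 and 378 in E20/p53 1-3 and 261, 268 and 276 in E20/p53 4-6. The 6 high libraries stood clear of the rest, since the lowest of them was at 372 CPM and the highest of the other 12 at 276 CPM. Between set means Acly was 1.72-fold higher in E20 4-6 than in E20 1-3, and 1.41-fold higher in E20/p53 1-3 than in E20/p53 4-6.

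Acss2, on chromosome 2 at 155517948 to 155585724, varied most of the 10 genes, with its highest set mean 7.13 times its lowest. It stood at 18.4, 19.6 and 18.6 CPM in WT, 7.63, 7.82 and 7.94 in p53, 19.2, 22.2 and 20.08 in E20 1-3, 58.6, 54.5 and 53.63 in E20 4-6, 31.6, 41.2 and 36.0 in E20/p53 1-3 and 7.56, 7.90 and 9.81 in E20/p53 4-6. The sets thus formed 4 steps: p53 and E20/p53 4-6 overlapped at the bottom, WT and E20 1-3 overlapped above them, and E20/p53 1-3 and then E20 4-6 lay on top. The differences were 2.71-fold between the sets of E20 and 4.28-fold between those of E20/p53. Exons of Acss2 touch Ggt7, Gss and Acss2os on the other strand. Ggt7 had set means between 0.491 CPM in WT and 29.9 CPM in E20 1-3 and Gss between 20.51 CPM in E20 4-6 and 45.7 CPM in E20/p53 4-6, in orders unlike that of Acss2. Libraries were made with a stranded kit, but whether the counting used strand is not given in the sources used here, so shared reads cannot be told apart.

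Me1, on chromosome 9 at 86581371 to 86695953, did not follow the other members. It was at 80.3, 79.9 and 88.2 CPM in WT, 116, 125 and 113 in p53, 194, 191 and 188 in E20 1-3, 155, 167 and 161 in E20 4-6, 64.5, 65.7 and 63.3 in E20/p53 1-3 and 147, 140.3 and 137 in E20/p53 4-6. Its 6 sets did not overlap, and the order was E20/p53 1-3, WT, p53, E20/p53 4-6, E20 4-6 and E20 1-3. Me1 was therefore lowest in one of the sets in which Fasn and Acaca were highest, at 0.457 times its level in E20/p53 4-6. An antisense gene that touches a Me1 exon, A330041J22Rik, did not exceed a set mean of 0.626 CPM.

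Acaca, which commits acetyl-CoA to fatty acid synthesis, lies on chromosome 11 at 84129672 to 84401651. Its libraries stood at 39.7, 38.6 and 39.6 CPM in WT, 37.8, 38.9 and 39.4 in p53, 42.9, 45.6 and 43.0 in E20 1-3, 76.6, 76.3 and 75.5 in E20 4-6, 85.4, 90.5 and 86.8 in E20/p53 1-3 and 37.9, 34.8 and 38.8 in E20/p53 4-6. Outside the 2 high sets, the 12 libraries lay within 34.8 to 45.6 CPM, whatever their genotype or tissue. The sets of E20 differed 1.74-fold and those of E20/p53 2.35-fold.

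Fasn, which carries out every step of the synthesis cycle in 1 polypeptide, lies on chromosome 11 at 120805846 to 120824547. It was at 194, 209 and 192 CPM in WT, 265, 209 and 248 in p53, 167, 163 and 193 in E20 1-3, 336, 341 and 339.6 in E20 4-6, 463, 468 and 452 in E20/p53 1-3 and 254, 274 and 252 in E20/p53 4-6. E20 1-3 overlapped WT, and p53 overlapped E20/p53 4-6, while the 2 high sets overlapped no other set. The differences were 1.95-fold between the sets of E20 and 1.78-fold between those of E20/p53.

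Elovl6, on chromosome 3 at 129532355 to 129638495, elongates palmitate to stearate. It stood at 52.5, 57.3 and 56.5 CPM in WT, 58.1, 56.4 and 59.7 in p53, 67.9, 64.9 and 74.6 in E20 1-3, 145, 151 and 151 in E20 4-6, 141, 169 and 151 in E20/p53 1-3 and 50.6, 51.8 and 49.4 in E20/p53 4-6. The 2 high sets overlapped each other, and the highest of the other libraries reached 74.6 CPM. With 2.16-fold between the sets of E20 and 3.02-fold between those of E20/p53, Elovl6 had the second largest difference of the 10 genes in E20/p53, after Acss2.

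Scd1 and Scd2 are neighbouring paralogs on chromosome 19, at 44394455 to 44407879 and 44293674 to 44306864, and near-identical stretches could be counted for either. Scd1 was at 273, 292 and 276 CPM in WT, 179, 182 and 185 in p53, 388, 383 and 398 in E20 1-3, 498, 522 and 497 in E20 4-6, 434, 505 and 446 in E20/p53 1-3 and 258, 267 and 263 in E20/p53 4-6. The lowest group was p53, and E20 1-3 lay between the 2 high sets, which overlapped, and WT. The folds were 1.30 between the sets of E20 and 1.75 between those of E20/p53.

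Scd2 followed a different order. It stood at 461, 516 and 470.0 CPM in WT, 669, 618 and 692 in p53, 692, 669 and 708 in E20 1-3, 1802, 1818 and 1779 in E20 4-6, 992, 1084 and 1017 in E20/p53 1-3 and 1115, 1122 and 1059 in E20/p53 4-6. E20 4-6 was 2.61-fold above E20 1-3, while the sets of E20/p53 overlapped, with a ratio of 0.938. Per kb of exon, Scd2 had the highest level of the 10 genes in every set, from 88.3 CPM per kb in WT to 329 in E20 4-6. The ratio of Scd2 to Scd1 per kb was 1.54 ± 0.0374 in WT, 3.24 ± 0.178 in p53, 1.59 ± 0.0173 in E20 1-3, 3.19 ± 0.0622 in E20 4-6, 2.00 ± 0.0705 in E20/p53 1-3 and 3.75 ± 0.131 in E20/p53 4-6 (SD, n = 3 libraries each). The 2 genes thus changed unequally: the ratio was between 1.51 and 1.60 in the libraries of WT and E20 1-3 and between 3.04 and 3.87 in those of p53, E20 4-6 and E20/p53 4-6.

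Fads2, the delta-6 desaturase, lies on chromosome 19 at 10062765 to 10101746. It was at 68.5, 76.5 and 64.7 CPM in WT, 47.4, 43.5 and 45.9 in p53, 70.9, 67.4 and 69.4 in E20 1-3, 149 in each of the 3 libraries of E20 4-6, 124, 121 and 119 in E20/p53 1-3 and 55.7, 58.7 and 55.8 in E20/p53 4-6. WT and E20 1-3 overlapped, and every other pair of neighbours in the order of sets was separate. The differences were 2.15-fold in E20 and 2.14-fold in E20/p53.

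Srebf1, on chromosome 11 at 60199089 to 60222581, had the smallest range of the 10 genes, 1.81-fold from the lowest set mean to the highest. Its level was 86.6, 89.5 and 93.6 CPM in WT, 80.8, 76.3 and 76.9 in p53, 86.6, 86.5 and 82.8 in E20 1-3, 115, 117 and 121 in E20 4-6, 148, 136 and 140.2 in E20/p53 1-3 and 81.2, 84.8 and 89.5 in E20/p53 4-6. The mRNA of Srebf1 was highest in E20/p53 1-3, as were Acaca and Fasn, and its processing into active protein was not measured. The folds were 1.38 between the sets of E20 and 1.66 between those of E20/p53. An exon of Srebf1 touches Rai1 on the other strand, whose set means lay between 67.5 CPM in E20 1-3 and 123 CPM in WT.

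The 2 high sets were not alike in every member. Acly, Acss2, Me1, Scd2 and Fads2 were higher in all 3 libraries of E20 4-6 than in all 3 of E20/p53 1-3, by 1.12-fold for Acly to 2.50-fold for Me1 (5 of 10 genes, against 38.5% of all genes tested). Acaca, Fasn and Srebf1 were higher in E20/p53 1-3, by 1.15-, 1.36- and 1.20-fold (3 of 10, against 41.8% of all genes). Elovl6 and Scd1 overlapped. These shares were near those of all genes.

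The genotype comparisons were made with limma over all 18 libraries, with Benjamini-Hochberg adjustment over all genes tested and an adjusted p under 0.05 called. Of the 60 pairs of a member and a comparison, 13 were called. In 31 of the 60 the libraries of the groups did not overlap, so such a separation is not particular to the called genes. The share of all genes without overlap was not counted. These separations, here and in the comparisons below, are therefore a description and not a result about the members. E20/p53 against E20 asks how the double mutant differs from the PIK3CA mutant. In it 1 member, Me1, was lower and 0 were higher, beside 19.6% of all genes lower and 23% higher. Me1 had a mean of 103 ± 42.1 CPM in E20/p53 and 176 ± 16.9 CPM in E20 (SD, n = 6 each), a log2 difference of -0.88 (SE 0.21, adjusted p = 0.00293 by limma). All 6 double mutant libraries lay below all 6 of E20. The difference was -0.31 without E20/p53 1-3 and -1.44 without E20/p53 4-6, and it was called in both. The other 9 members overlapped between the groups. Acly, for example, had means of 323 ± 60.0 CPM in E20/p53 and 333 ± 96.3 CPM in E20, with a log2 difference of -0.015 and a 95% interval of -0.37 to 0.34, which became 0.095 with the plain sum of reads. At an unadjusted p under 0.05 limma had 1 member higher, Fasn, and 2 lower, Me1 and Scd1; in the directions with 0 calls in the other 5 comparisons it had 0. Acss2 (log2 -1.20, adjusted p = 0.0426 by limma) and Scd1 (log2 -0.46, adjusted p = 0.0251 by limma) were called lower without E20/p53 replicate 2. Fasn (log2 0.60, adjusted p = 0.0494 by limma) was called higher without E20/p53 replicate 6.

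E20/p53 against p53 differs in the PIK3CA allele and in labelled Cre. In it Scd1 was higher, 1 of 10, beside 12.9% of all genes higher. The members had 0 lower, beside 12.9% of all genes. Scd1 was at 362 ± 112 CPM in E20/p53 (n = 6) and 182 ± 3.02 CPM in p53 (n = 3), a log2 difference of 0.93 (SE 0.20, adjusted p = 0.00297 by limma), and all 6 libraries lay above all 3. The libraries also lay apart in this way for Acly, Scd2, Fads2 and Srebf1, none of which was called. Fads2 (log2 0.86, adjusted p = 0.0715 by limma) and Srebf1 (log2 0.49, adjusted p = 0.0719 by limma) did not pass. Both were called when E20/p53 replicate 4, 5 or 6 was left out, with adjusted p by limma of 0.0417, 0.0471 and 0.0416 for Fads2 and 0.0292, 0.0369 and 0.0460 for Srebf1. With all of E20/p53 4-6 left out, 9 members were called, beside 63.9% of all genes, and with E20/p53 1-3 left out 2 were, beside 34.2%.

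In E20 against p53, 3 of 10 members were higher, Acss2, Scd1 and Fads2, beside 14.5% of all genes, and 0 were lower, beside 16.4%. Acss2 was at 38.0 ± 19.3 CPM in E20 and 7.80 ± 0.155 CPM in p53 (log2 2.10, SE 0.56, adjusted p = 0.00868 by limma). Scd1 was at 448 ± 64.4 CPM in E20 against 182 ± 3.02 (log2 1.28, SE 0.20, adjusted p = 1.44e-04 by limma). Fads2 averaged 109 ± 43.6 CPM in E20 and 45.6 ± 1.96 CPM in p53 (log2 1.15, SE 0.34, adjusted p = 0.0164 by limma). In each of the 3 genes all 6 E20 libraries lay above all 3 of p53. The same held for Acly, Me1, Acaca, Elovl6 and Srebf1, which were not called. The Fads2 call was lost without p53 replicate 2 (adjusted p = 0.0602 by limma) or 3 (adjusted p = 0.0528 by limma). Without E20 4-6 the Fads2 difference was 0.60 and that of Acss2 1.38, neither of them called. Scd2 (log2 0.76, adjusted p = 0.0708 by limma) was called without E20 replicate 1, 2 or 3, at log2 0.89, 0.90 and 0.89, and reached 1.45 without all of E20 1-3.

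Against WT, where tissue differs as well, p53 had 1 member lower, Scd1, beside 24.9% of all genes lower, and 0 higher, beside 29.3%. The summed skeletal muscle markers had medians of 1467 CPM in p53 and 7.24 CPM in WT. Scd1 was at 182 ± 3.02 CPM in p53 and 280.3 ± 10.4 CPM in WT (n = 3 each), a log2 difference of -0.62 (SE 0.23, adjusted p = 0.0324 by limma). That call was lost when any 1 of these 6 libraries was left out, with adjusted p by limma between 0.0615 and 0.0824. With only these 2 groups in the fit, 8 of 10 members were called, near the 80.7% of all genes called there. In that fit the spread between the sets of E20 and of E20/p53 does not enter, while in the fit over 18 libraries it does.

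In E20 against WT, 4 of 10 members were higher, Acly, Me1, Scd1 and Scd2, beside 29% of all genes, and 0 were lower, beside 26.4%. The log2 differences were 0.65 for Acly (SE 0.20), 1.09 for Me1 (SE 0.25), 0.66 for Scd1 (SE 0.20) and 1.21 for Scd2 (SE 0.31), with adjusted p of 0.0123, 0.00178, 0.0101 and 0.00316 by limma. All 6 E20 libraries lay above all 3 of WT in each of these genes, and also in Acaca and Elovl6, which were not called. Scaled to the plain sum of reads, Acly (log2 0.49, adjusted p = 0.0739 by limma) and Scd1 (log2 0.50, adjusted p = 0.0847 by limma) were not called. They were not called without E20 4-6 either, at log2 0.26 and 0.48, and Scd2 fell to 0.52 there and stayed called.

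In E20/p53 against WT, 3 of 10 members were higher, Acly, Fasn and Scd2, beside 26.5% of all genes, and 0 were lower, beside 21.6%. The log2 differences were 0.64 for Acly (SE 0.20), 0.80 for Fasn (SE 0.28) and 1.14 for Scd2 (SE 0.31), with adjusted p of 0.0164, 0.0277 and 0.00572 by limma. The Fasn call was lost without WT replicate 1, 2 or 3 (adjusted p = 0.0779, 0.0605 and 0.0799 by limma), with the plain sum of reads (adjusted p = 0.0555 by limma) and without E20/p53 1-3 (log2 0.39). The Acly call was lost without WT replicate 1 (adjusted p = 0.0502 by limma) and without E20/p53 1-3 (log2 0.39). E20 and E20/p53 were both compared with the same WT libraries, so these counts are not independent of each other.

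**Figure D3:**
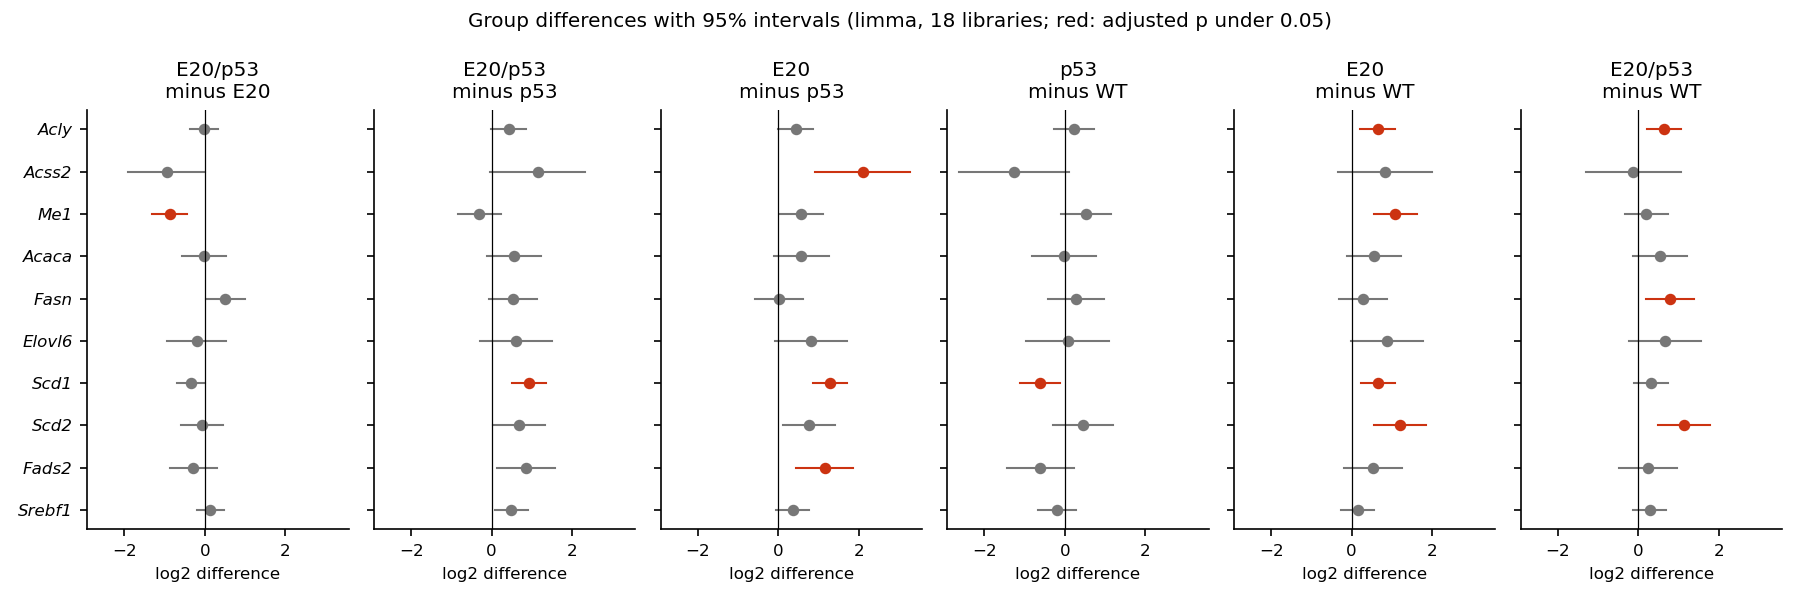
Log2 difference of each of the 10 genes in the 6 comparisons (points), with 95% intervals from limma over 18 libraries (lines) and a vertical line at 0; calls at an adjusted p under 0.05 are red. The 13 calls are Me1 in E20/p53 minus E20, Scd1 in 4 comparisons, and Acss2, Fads2, Acly, Me1, Scd2 and Fasn in comparisons with p53 or WT.

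These tests take each library as a replicate, while libraries of a set were nearly alike. With the set entered as a random block in limma (consensus correlation 0.92), 3 of the 13 calls held: Scd1 in E20 against p53 (adjusted p = 0.0263), beside 0.656% of all genes higher, and Me1 (adjusted p = 0.0267) and Scd2 (adjusted p = 0.0325) in E20 against WT, beside 8.66%. With the libraries averaged to 6 set means and limma on 2 residual degrees of freedom, 0 of the 13 held, and 1 of the 60 pairs, Scd1 in E20 against p53, had an unadjusted p under 0.05.

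Among the genes that control SREBP, Insig1 was higher in E20 4-6 than in E20 1-3, but not in E20/p53 1-3 than in E20/p53 4-6. INSIG1 holds the SREBP precursor and its escort SCAP in the endoplasmic reticulum, and its own gene is an SREBP target. Insig1 averaged 47.0 ± 2.35 CPM in WT and 45.1 ± 1.13 in p53, and 99.0 ± 0.580 in E20 1-3, 232 ± 6.51 in E20 4-6, 30.8 ± 2.15 in E20/p53 1-3 and 39.0 ± 2.34 in E20/p53 4-6 (SD, n = 3 each). Insig1 was thus 2.35-fold higher in E20 4-6 than in E20 1-3, like the enzymes. It was at 0.789 times E20/p53 4-6 in E20/p53 1-3, where most of the enzymes were higher. Insig2, of the same list, had a similar pattern, at 2.11-fold in E20 and 0.942 times in E20/p53. Between groups Insig1 was lower in E20/p53 than in E20 (log2 -2.13, SE 0.23, adjusted p = 2.08e-06 by limma), and the call held with the set as a random block (adjusted p = 1.07e-04). It was also higher in E20 than in p53 (log2 1.75) and than in WT (log2 1.69), called in both.

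Srebf2, which encodes the SREBP of cholesterol synthesis, had the 6 libraries of E20 4-6 and E20/p53 1-3 on top, at 456 ± 5.10 and 326 ± 1.34 CPM, beside 213 ± 11.2 in E20 1-3 and 298 ± 9.76 in E20/p53 4-6. No comparison between groups called Srebf2. Scap, the escort, was lower in E20/p53 than in E20 (log2 -0.64, SE 0.14, adjusted p = 0.00171 by limma) and higher in E20 than in p53 (log2 0.82) and than in WT (log2 0.77). Its set means ran from 60.5 ± 1.76 CPM in E20/p53 4-6 to 129.8 ± 2.73 in E20 4-6. Mlxipl, which encodes the carbohydrate-responsive factor ChREBP, was low, with set means of at most 1.78 CPM. Between set means it was 23.6-fold higher in E20/p53 1-3 than in E20/p53 4-6. In E20 4-6 it was at 0.938 times E20 1-3. At these levels both folds rest on few reads.

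**Figure D4:**
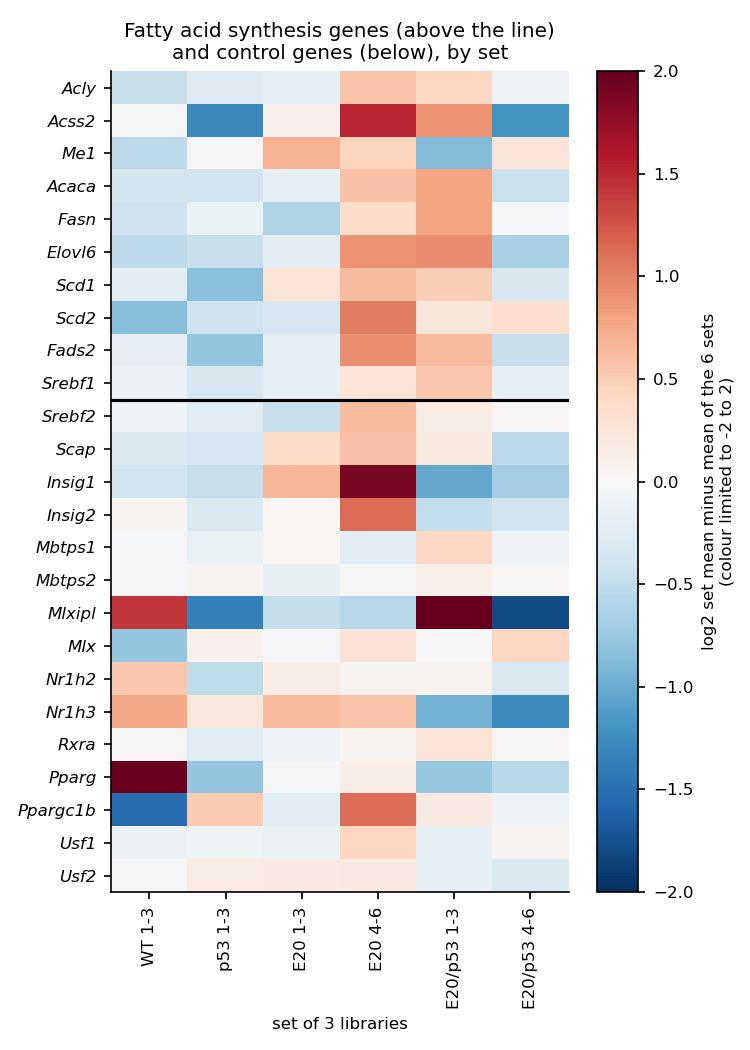
Log2 mean of each set minus the mean of the 6 sets for the 10 members (above the line) and the 15 control genes (below), red for higher and blue for lower, with colours limited to -2 to 2. The columns E20 4-6 and E20/p53 1-3 are red for most members. Of the control genes, Insig1, for example, is red in the first and blue in the second.

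The other genes of the pathway were read from 7 fixed lists holding 95 genes, 93 of them tested. Of these, 7 were at least 1.5-fold higher both in E20 4-6 over E20 1-3 and in E20/p53 1-3 over E20/p53 4-6. That is 7.53% of the 93, near the 5.38% of all genes tested, so the count is not a result about the pathway. Among the 7 were the citrate carrier Slc25a1, the NADPH-producing Idh1, the elongase Elovl5, the desaturase Scd3, the phosphatidate phosphatase Lpin1 and Ppara, a factor that drives fatty acid oxidation. Lpin1 had the largest difference of the 7 in E20/p53, 7.07-fold, and was 2.23-fold higher in E20. All 6 libraries of the 2 high sets lay above the other 12 in 5 of the 93 genes, 5.38%, beside 2.68% of all genes tested. Elovl5, Scd3 and Lpin1 were among these, as was Srebf2, which was not past the fold in E20/p53. These genes were picked out after their values were seen. The highest median difference of the 7 lists was 0.27 in E20 and 0.24 in E20/p53 on the log2 scale.

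Between groups the 7 lists had calls in both directions. Their counts are to be read against the shares of all genes called higher and lower, which were 23% and 19.6% in E20/p53 against E20, 12.9% and 12.9% in E20/p53 against p53 and 14.5% and 16.4% in E20 against p53. Against WT these shares were 29.3% and 24.9% for p53, 29% and 26.4% for E20 and 26.5% and 21.6% for E20/p53. Several counts were near them, and no list was tested. Of 13 supply genes, 2 were higher and 5 lower in E20/p53 against E20, with a median log2 difference of -0.18 beside 0.05 for all genes tested. Me3 (log2 -2.22, adjusted p = 2.14e-06 by limma) and Idh1 (log2 -1.45, adjusted p = 3.03e-05 by limma) were lower and Me2 higher (log2 0.46, adjusted p = 4.02e-05 by limma). Me3 and Me2 are mitochondrial malic enzymes, and Me3 did not exceed a set mean of 6.36 CPM. The supply counts of higher and lower genes were 2 and 3 in E20/p53 against p53, 3 and 1 in E20 against p53, 4 and 4 in p53 against WT, 4 and 2 in E20 against WT and 2 and 4 in E20/p53 against WT.

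Of the 5 carboxylation partners tested, 0 were higher (0 also at an unadjusted p under 0.05) and 3 lower by limma in E20/p53 against E20 (median log2 -0.33). These were the mitochondrial carboxylase Acacb (log2 -1.72, adjusted p = 0.00122 by limma), Mid1ip1 (log2 -0.56, adjusted p = 0.00483 by limma), whose product activates ACC enzymes, and Oxsm (log2 -0.33, adjusted p = 0.0208 by limma). Acacb, the paralog of Acaca, was at 26.3 ± 2.65 CPM in E20 4-6 but 2.99 ± 0.138 CPM in E20/p53 1-3, where Acaca was at its highest. The higher and lower counts were 0 and 0, 2 and 0, 0 and 2, 0 and 0 and 0 and 2 in the other 5 comparisons, in the same order.

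Of 17 elongation and desaturation partners tested, 4 were higher and 2 lower in E20/p53 against E20 (median log2 -0.08). Elovl7 (log2 2.32, adjusted p = 8.38e-04 by limma) and Elovl4 (log2 0.89, adjusted p = 0.00479 by limma), elongases of long and very long chains, were higher. Fads6 was called higher as well (adjusted p = 5.33e-06 by limma), at set means of at most 0.744 CPM. The counts in the other 5 comparisons, in the same order, were 5 and 2, 4 and 2, 6 and 6, 7 and 2 and 5 and 1. Of the 15 control genes, 0 were higher (2 at an unadjusted p under 0.05) and 6 lower by limma in E20/p53 against E20 (median log2 -0.21), with Nr1h3, the LXR-alpha gene (log2 -1.70, adjusted p = 1.16e-05 by limma), and Usf2 (log2 -0.40, adjusted p = 1.83e-05 by limma) beside Insig1. The other counts were 2 and 2, 6 and 0, 3 and 3, 5 and 2 and 2 and 4.

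Downstream of synthesis, 4 of 16 acyl-CoA and glycerolipid genes were higher and 4 lower in E20/p53 against E20 (median log2 -0.18), among them Lpin2 higher (log2 0.65, adjusted p = 0.00156 by limma) and Acsl1 (log2 -0.43, adjusted p = 0.00176 by limma) and Dgat1 (log2 -0.22, adjusted p = 0.00807 by limma) lower. The other counts were 1 and 5, 3 and 4, 7 and 3, 7 and 4 and 5 and 4. Of 10 uptake genes, 2 were higher, Cd36 (log2 1.52, at set means of at most 1.19 CPM) and Slc27a4 (log2 0.31), and 1 lower, Slc27a1 (log2 -0.53), with a median of -0.16. Their other counts were 1 and 3, 3 and 3, 4 and 2, 3 and 1 and 4 and 1. Of 17 oxidation genes, 1 was higher, Etfdh (log2 0.25), and 4 lower, among them Cpt1c (log2 -2.32) and Hadha (log2 -0.28), with a median of -0.07. The counts in the other comparisons were 5 and 1, 6 and 0, 4 and 6, 6 and 4 and 7 and 5.

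E20 4-6 and E20/p53 1-3, the sets with the highest levels of most of the enzymes, differed in cell markers. In bulk RNA, fewer cells of a type and less RNA per cell cannot be told apart. Summed over 8 fibroblast markers, the level was 18452 to 19781 CPM in E20 4-6 and 151 to 158 CPM in E20/p53 1-3, with 6 of 8 markers at 1 CPM or more in each. Summed over 10 keratinocyte markers it was 5.62 to 6.54 CPM in E20 4-6, with 4 of 10 at 0 reads, and 1017 CPM in each library of E20/p53 1-3, with 0 at 0 reads. Inside each group the pairs of sets differed too. E20 1-3 had 122 to 143 CPM of keratinocyte markers and 17328 to 19400.2 CPM of fibroblast markers, and E20/p53 4-6 had 10.5 to 12.6 CPM and 20105 to 22090 CPM. Summed over 8 skeletal muscle markers, the medians were 698 CPM in E20 4-6, 633 in E20 1-3, 2.78 in E20/p53 1-3, 495 in E20/p53 4-6, 1467 in p53 and 7.24 in WT. The part of these markers in the enzymes' levels was not tested. Adipocytes and sebaceous glands are rich in these enzymes, so their markers were read as well. Adipoq, Plin1, Cidec and Lep did not exceed a set mean of 0.101 CPM, and the 8 adipocyte markers summed to at most 43.6 CPM, in WT, and to 19.0 to 21.1 CPM in E20 4-6 and 8.95 to 11.6 CPM in E20/p53 1-3. The 8 sebaceous markers summed to 237 to 243 CPM in E20 4-6 and 64.8 to 67.9 CPM in E20/p53 1-3, nearly all of it from Soat1, which many cells express.

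**Figure D5:**
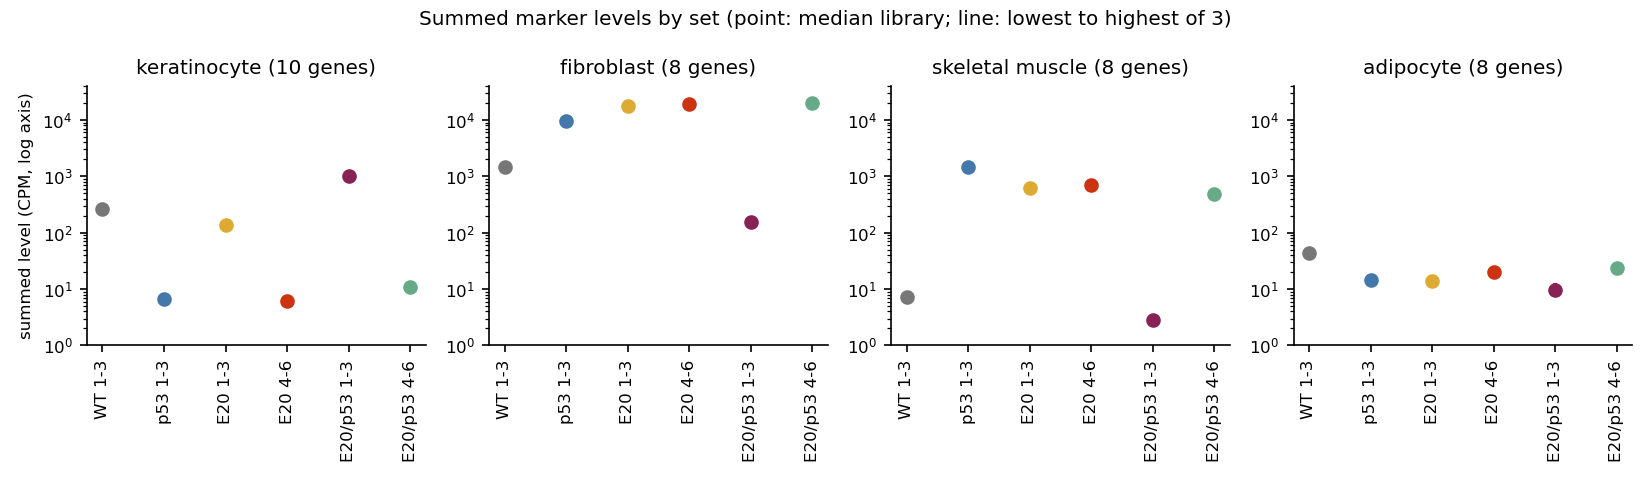
Summed level of 4 marker lists in each set (CPM, log axis; point for the median library, line from the lowest to the highest of 3). E20 4-6 and E20/p53 1-3, the sets with the highest levels of most fatty acid synthesis genes, are apart in keratinocyte markers (6.04 and 1017 CPM) and in fibroblast markers (19434 and 154 CPM), and adipocyte markers stay at 43.6 CPM or below.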

How the data were processed

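The authors' deposited table holds log2 values for 26143 genes in 18 libraries. Each value is the log2 ratio of reads plus 1 to a scaled total of its library, as 100% of values gave whole reads to within 0.001. Per the submitters' processing notes, bcl2fastq 1.8.4, Trimmomatic and featureCounts were used with build mm10. For the aligner, the annotation, the strand setting of the counting and the scaling of totals, nothing is given in the sources used here. The scaled totals were 0.939 to 1.12 times the summed reads, and CPM refers to them. Genes were tested when at least 3 libraries reached 0.635 CPM (10 reads at the median depth) and the summed reads were at least 15. limma 3.58.1 in R 4.3.3 was fitted to the log2 values of the 15235 genes left, with a mean-variance trend, a mean per group and 14 residual degrees of freedom, after the procedure was tested on simulated data.

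Members and lists were chosen with earlier results of these data known. The set folds, the count of genes with 6 libraries on top, the alternatives to both and the sex markers were chosen after the data were seen. Named genes are all members, Insig1, Srebf2, Scap and Mlxipl, and up to 3 genes per list. Those of a list had the smallest adjusted p in E20/p53 against E20. Pathway genes named for passing the fold in both groups, or for having 6 libraries on top, were picked out after their values were seen, as was Insig2. Other scalings, pseudocounts, filters, voom, units of replication and left-out libraries were tried. Gene positions come from GENCODE M21, and levels per kb use the union of its exons. Promoters come from RefSeq, and 3 windows that overlap annotated exons were not printed. A comparison of the SCD1 and SCD2 proteins was planned and is not analysed here. A pathway gene that the counts include is not reported here by name.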

Additional observations from a re-analysis of the deposited data

How the results depend on the processing

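The values here follow the order E20/p53 against E20, E20/p53 against p53, E20 against p53, p53 against WT, E20 against WT and E20/p53 against WT, in which limma called 6491, 3924, 4709, 8259, 8428 and 7333 genes and 1, 1, 3, 1, 4 and 3 members. Over 6 set means it called 0, 0, 0, 1, 8 and 1 genes (973, 422, 629, 1627, 2073 and 1574 at an unadjusted p under 0.05) and 0 members in each. With the set as a random block it called 739, 95, 175, 1456, 2034 and 1268 genes and 0, 0, 1, 0, 2 and 0 members. Leaving out 1 library at a time, the genes called ranged over 5840 to 6836, 2331 to 4691, 3360 to 4761, 6987 to 7235, 7163 to 8277 and 5929 to 7614. The members called ranged over 1 to 3, 1 to 3, 2 to 4, 0 to 0, 4 to 4 and 1 to 3.

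With E20 1-3 left out, the members called were 6 in E20/p53 against E20 (beside 44.9% of all genes), 8 in E20 against p53 (beside 40.6% of all genes) and 9 in E20 against WT (beside 54.2% of all genes). With E20 4-6 left out, the members called were 4 in E20/p53 against E20 (beside 38.2% of all genes), 1 in E20 against p53 (beside 29.0% of all genes) and 2 in E20 against WT (beside 56.3% of all genes). With E20/p53 1-3 left out, the members called were 6 in E20/p53 against E20 (beside 52.9% of all genes) and 2 in E20/p53 against p53 (beside 34.2% of all genes). With E20/p53 4-6 left out, the members called were 4 in E20/p53 against E20 (beside 65.1% of all genes), 9 in E20/p53 against p53 (beside 63.9% of all genes) and 9 in E20/p53 against WT (beside 58.3% of all genes), with 9912 genes in E20/p53 against E20 and 9734 genes in E20/p53 against p53. With only the 2 groups compared in the fit, 2 members were called in E20/p53 against p53 (beside 18.7% of all genes) and 8 in p53 against WT (beside 80.7%). With the plain sum of reads, 2 members were called in E20 against WT (beside 56.0% of all genes). Between the sets of a group, 4 members were at least 2-fold higher in E20, beside 6.64% of all genes. In E20/p53 4 members were, beside 15.7%, and 3 were in both groups, beside 1.94%. At a fold threshold under 1.5, chosen after seeing the data, 8 members passed in both. The share of all genes passing in both was then 10.8%, in place of 5.38% at 1.5-fold.

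Single members changed direction in some settings. With the plain sum of reads, the log2 difference became 0.095 for Acly in E20/p53 against E20, 0.091 for Acaca in E20/p53 against E20, 0.043 for Scd2 in E20/p53 against E20, -0.0068 for Fasn in E20 against p53, -0.075 for Elovl6 in p53 against WT and -0.0090 for Srebf1 in E20 against WT. With the upper quartile, the log2 difference became 0.019 for Acly in E20/p53 against E20, 0.015 for Acaca in E20/p53 against E20, -0.0081 for Fasn in E20 against p53 and -0.0089 for Elovl6 in p53 against WT. Without E20 1-3 it became -0.10 for Srebf1 in E20/p53 against E20. Without E20 4-6 it became 0.37 for Acly, 0.38 for Acaca, 0.35 for Elovl6, 0.62 for Scd2 and 0.26 for Fads2 in E20/p53 against E20; -0.46 for Fasn in E20 against p53; -0.19 for Fasn, -0.011 for Fads2 and -0.075 for Srebf1 in E20 against WT. Without E20/p53 1-3 it became -0.24 for Srebf1 in E20/p53 against E20; 0.26 for Me1, -0.059 for Acaca and -0.20 for Elovl6 in E20/p53 against p53; -0.080 for Acaca, -0.13 for Elovl6, -0.093 for Scd1, -0.30 for Fads2 and -0.079 for Srebf1 in E20/p53 against WT. Without E20/p53 4-6 it became 0.23 for Acly, 0.097 for Acss2, 0.60 for Acaca, 0.59 for Elovl6, 0.054 for Scd1 and 0.26 for Fads2 in E20/p53 against E20; 0.93 for Acss2 and -0.36 for Me1 in E20/p53 against WT. With 1 library left out, the log2 difference ranged over -0.097 to 0.069 for Acly in E20/p53 against E20, -0.15 to 0.12 for Acaca in E20/p53 against E20, -0.21 to 0.075 for Scd2 in E20/p53 against E20, -0.079 to 0.13 for Fasn in E20 against p53 and -0.37 to 0.12 for Acss2 in E20/p53 against WT. The cause of these changes was not tested.

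The deviations of libraries with the same replicate number from their group means had correlations of at most 0.074, so the numbers are not used as pairs. In E20/p53 against E20, 2 of 6 E20/p53 libraries correlated best with their own number. A replicate block moved the genes called to 6410 in E20/p53 against p53, left 1, 1, 2, 0, 3 and 1 members called in the 6 comparisons and turned Fasn in E20 against p53 (log2 -0.015), Acss2 in E20/p53 against WT (log2 0.047) and Me1 in E20/p53 against WT (log2 -0.015).

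Scaling to the plain sum of reads moved the median log2 difference of all genes by 0.11 in E20/p53 against E20, -0.14 in p53 against WT and -0.17 in E20 against WT, and the upper quartile moved it by -0.10 in E20 against WT. Member differences moved by the same amounts. With the plain sum, higher and lower calls were 4510 and 2465 in E20/p53 against E20, in place of 3502 and 2989, and 3563 and 4970 in E20 against WT, in place of 4412 and 4016. Median-of-ratios factors, log2 of CPM plus 1, no filter, a filter of 5 CPM in 3 libraries and voom changed no direction and no call of a member. Depth did not limit the members, but Mlxipl, Fads6 and Cd36, with set means of at most 1.78, 0.744 and 1.19 CPM, rest on few reads.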
